A study of Mus musculus with 46 samples.

Results

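The mTOR kinase complexes and the proteins that switch them on or off were followed here through 10 genes in murine pancreatic cancer cells. They encode the shared subunits mTOR and mLST8 (Mtor, Mlst8), the mTORC1 subunits Raptor and PRAS40 (Rptor, Akt1s1), the mTORC2 subunit Rictor (Rictor), the GTPase Rheb (Rheb), the TSC proteins that hold Rheb in check (Tsc1, Tsc2), and the ribosomal S6 kinases (Rps6kb1, Rps6kb2). The genes were chosen by symbol, and all 10 were among the 9857 symbols that stand on 1 entry each in the tables of DMSO-treated and of torin 1-treated cells. The libraries of ribosome footprints and of poly(A) RNA come from EPP2 cells, a mouse pancreatic cancer line that the study used as a clone grown from a single cell and carrying doxycycline-inducible Cas9. Control cells (genotype WT in the labels) and Ctu1KO cells, in which the knockout of the thiouridylase subunit Ctu1 had been induced with 300 ng/ml doxycycline for 4 days, received either DMSO or 300 nM torin 1 for 2 h. There were 6 footprint and 6 RNA-seq libraries of control cells with DMSO, of control cells with torin 1 and of Ctu1KO cells with torin 1, and 5 of each of Ctu1KO cells with DMSO. Control cells of the study carried guide RNAs against non-coding regions or were left without doxycycline, and which of these applies here is not given in the labels.

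mTORC1 joins growth factor and nutrient signals to protein synthesis. GTP-bound Rheb activates it at the lysosome, and the TSC complex turns Rheb off by raising its GTP hydrolysis. Raptor brings in substrates such as the S6 kinases and the 4E-BP repressors of translation, and PRAS40 is both a substrate and an inhibitor. mTORC2, which is built around Rictor, phosphorylates Akt and SGK1. Torin 1 blocks the catalytic site of mTOR and thereby acts on both complexes. mRNAs with a 5′ terminal oligopyrimidine (TOP) motif, mostly those of ribosomal proteins, are the best known class whose translation falls when mTORC1 is blocked. Ctu1 helps to thiolate the wobble uridine of the tRNAs that read AAA, GAA and CAA codons (VAA codons).

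The start of an mRNA decides whether it belongs to the TOP class, so the annotated start windows of members from each branch are shown with that of Rps6, a TOP mRNA, for comparison. Each window holds 5 bases before and 20 bases from the annotated start (RefSeq, GRCm38.p6), and capitals mark an unbroken run of C or T that begins at the start.

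Mlst8: ccggcTTCTatcgactagctcctcc

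Rptor: aagggaggacggaacaccgagctct

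Rictor: ccggtgttgtgactgaaacccgtca

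Rheb: ggcagCCgcgcccgccgccgtgctc

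Tsc1: acgccagggggaggtgctgcgcgtc

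Rps6kb1: ggagcTgaacttgaggagccagtct

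Rps6: cgggcCTCTTTTTCgtgacgcctcc

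The windows lie at chr17:24479059-24479083 (minus strand) for Mlst8, chr11:119602900-119602924 (plus) for Rptor, chr15:6708376-6708400 (plus) for Rictor, chr5:24842342-24842366 (minus) for Rheb, chr2:28641228-28641252 (plus) for Tsc1, chr11:86544788-86544812 (minus) for Rps6kb1 and chr4:86857348-86857372 (minus) for Rps6. A start window was found for 9 of the 10 genes, and Rps6kb2 had none. No member began with a C followed by at least 4 further pyrimidines, the letters searched for on the transcribed strand, while 823 of all 32851 windows (2.505%) did. The longest run among the members was that of Mtor, with 5 pyrimidines that begin with T, and the run of Rps6 came to 9. Annotated starts can differ from those used in EPP2 cells, and a window without these letters says nothing about a factor that binds elsewhere.

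The members also differed in the codons that Ctu1-dependent tRNAs read. VAA codons made up 11.4% of the coding sequence of Rps6kb1, 10.9% of Rheb and 7.26% of Rictor, all above the median of 6.135% over the 9588 genes with a coding sequence in GENCODE M21 (GRCm38). The other 7 members lay below it, down to 1.84% in Mlst8. A stretch of 10 codons from the richest and from the poorest member shows the contrast, with VAA codons in capitals and the sense strand written in frame.

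Rps6kb1: GAAcattgtgagAAAtttGAAatctcaGAA

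Mlst8: tacCAAcatatccgcatgtatgatctcaac

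The Rps6kb1 stretch covers codons 67 to 76 (chr11:86534110-86534139, minus strand) and holds 4 VAA codons. The Mlst8 stretch covers codons 62 to 71 (chr17:24477994-24478023, minus strand) and holds 1.

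Footprint libraries summed to between 4602092 and 52907878 counts, and the RNA-seq libraries of replicates 1 to 3 to between 129881946 and 293648854. Values are TMM-normalised CPM, that is counts scaled to a common library size, unless another unit is named. The treatment labels were checked by placing each library on the difference between torin 1 and DMSO seen in replicates 1 and 2 of the other genotype, with the 10 genes left out. The middle of the scale was the mean of replicates 1 and 2 of the library's own genotype, so these replicates helped to set the scale. Labels exchanged alike in both genotypes would pass this check. All 23 footprint libraries and all 12 RNA-seq libraries of replicates 1 to 3 lay on the side of their label. In replicates 4 to 6 of the RNA-seq data, 2 of 5 libraries labelled DMSO and 4 of 6 labelled torin 1 lay on the other side. Transcripts were therefore compared in replicates 1 to 3, footprints in all replicates, and the ratio of both in replicates 1 to 3. Ctu1 itself is listed in the DMSO tables alone. Its transcripts came to 4.62 ± 0.12 CPM of the library total in control and 4.63 ± 0.30 in Ctu1KO (SD, n = 3 each), and its footprints to 2.53 ± 0.65 (SD, n = 6) and 1.79 ± 0.42 (SD, n = 5), with overlapping groups (log2 fold change -0.54 ± 0.29, SE, adjusted p = 0.353, edgeR). Counts per gene do not show whether an mRNA carries a frameshift, so they do not check this label. Of the epithelial markers, Krt8, Krt18, Krt19 and Sox9 were present, Epcam was near 1.12 CPM and listed in the DMSO tables alone, and Cdh1 and Krt7 were not listed. Of 9 leukocyte, endothelial, acinar and endocrine markers, Cd68 alone was listed. Summed RNA-seq levels of the 4 epithelial markers present in all tables lay between 289 and 311 CPM in control with DMSO and between 378 and 435 CPM with torin 1. In Ctu1KO they lay between 318 and 396 CPM with DMSO and between 550 and 622 CPM with torin 1. The 3 mesenchymal markers, led by Vim, lay between 2483 and 2749 CPM with DMSO and between 3184 and 3575 CPM with torin 1 in control, and between 3090 and 3420 CPM and between 5110 and 5772 CPM in Ctu1KO. Their part in the results on the 10 genes was not tested.

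**Figure D1:**
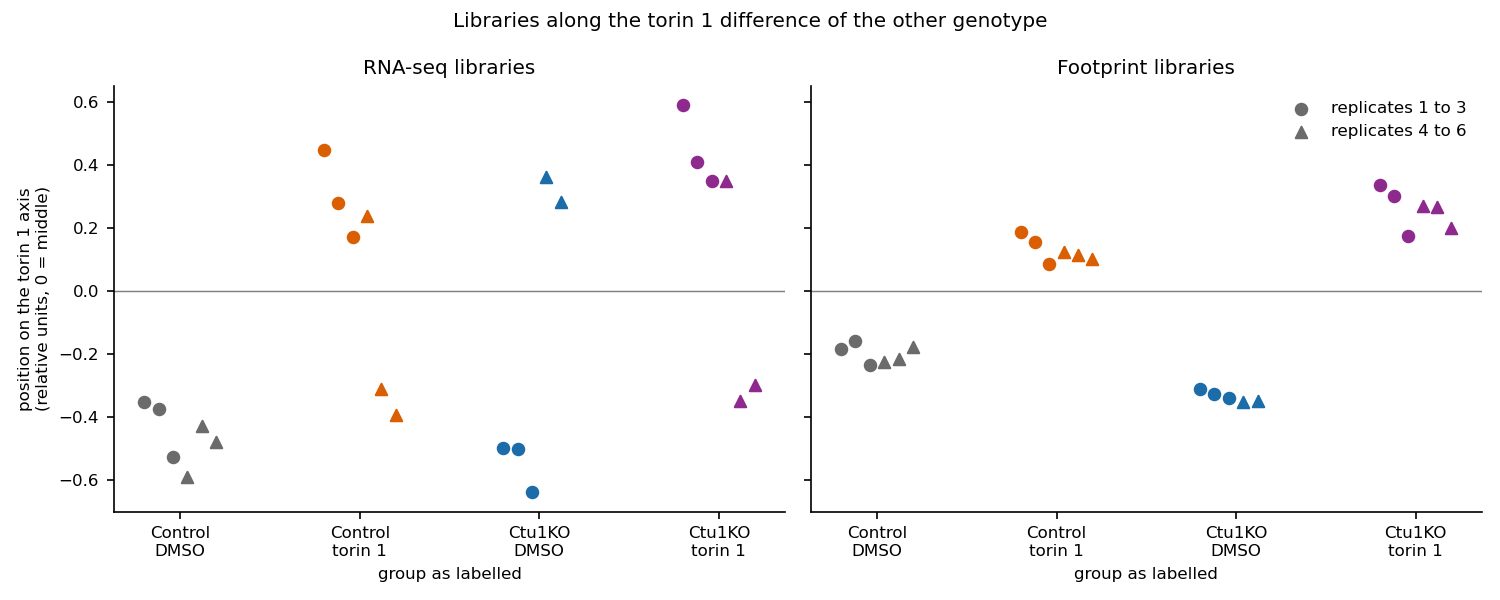
Position of each RNA-seq library (left) and footprint library (right) on the difference between torin 1 and DMSO of the other genotype, in relative units, by labelled group; circles are replicates 1 to 3 and triangles replicates 4 to 6. Below 0 lie the DMSO side and above 0 the torin 1 side: 6 RNA-seq triangles lie against their label, and no circle and no footprint library does.

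All members were read deeply enough to be measured in every library, from 32 footprint counts of Rps6kb2 in a control library with torin 1 upwards. To rank the genes, levels in control cells with DMSO were divided by the length of the coding sequence for footprints and of the transcript for RNA-seq. Akt1s1, the inhibitor PRAS40, stood highest on both scales, with 172.5 ± 40.4 footprint CPM per kb (SD, n = 6) and 113 ± 11.2 RNA-seq CPM per kb (SD, n = 3). Rictor stood lowest on both, with 3.25 ± 0.77 footprint CPM per kb (SD, n = 6) and 2.5 ± 0.06 RNA-seq CPM per kb (SD, n = 3). Mtor, the kinase itself, was next to last, with 6.92 ± 0.42 footprint CPM per kb (SD, n = 6), while its small partner Mlst8 reached 83.6 ± 16.2 (SD, n = 6). For orientation, the median gene had 18.1 footprint CPM per kb and 11.9 RNA-seq CPM per kb. In footprints the order ran Akt1s1, Mlst8, Rheb, Rps6kb1, Tsc2, Tsc1, Rptor, Rps6kb2, Mtor and Rictor. The libraries of Mlst8 and Rheb, Rps6kb1 and Tsc2, Tsc1 and Rptor, and Rps6kb2 and Mtor overlapped, so that these neighbours could not be told apart by the spread between libraries. In RNA-seq the order ran Akt1s1, Mlst8, Tsc2, Rheb, Rptor, Tsc1, Rps6kb1, Rps6kb2, Mtor and Rictor, and the libraries of Mlst8 and Tsc2 and of Rptor and Tsc1 overlapped. The S6 kinases differed from each other, with 24.8 ± 3.24 footprint CPM per kb for Rps6kb1 and 8.31 ± 2.01 for Rps6kb2 (SD, n = 6 each).

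**Figure D2:**
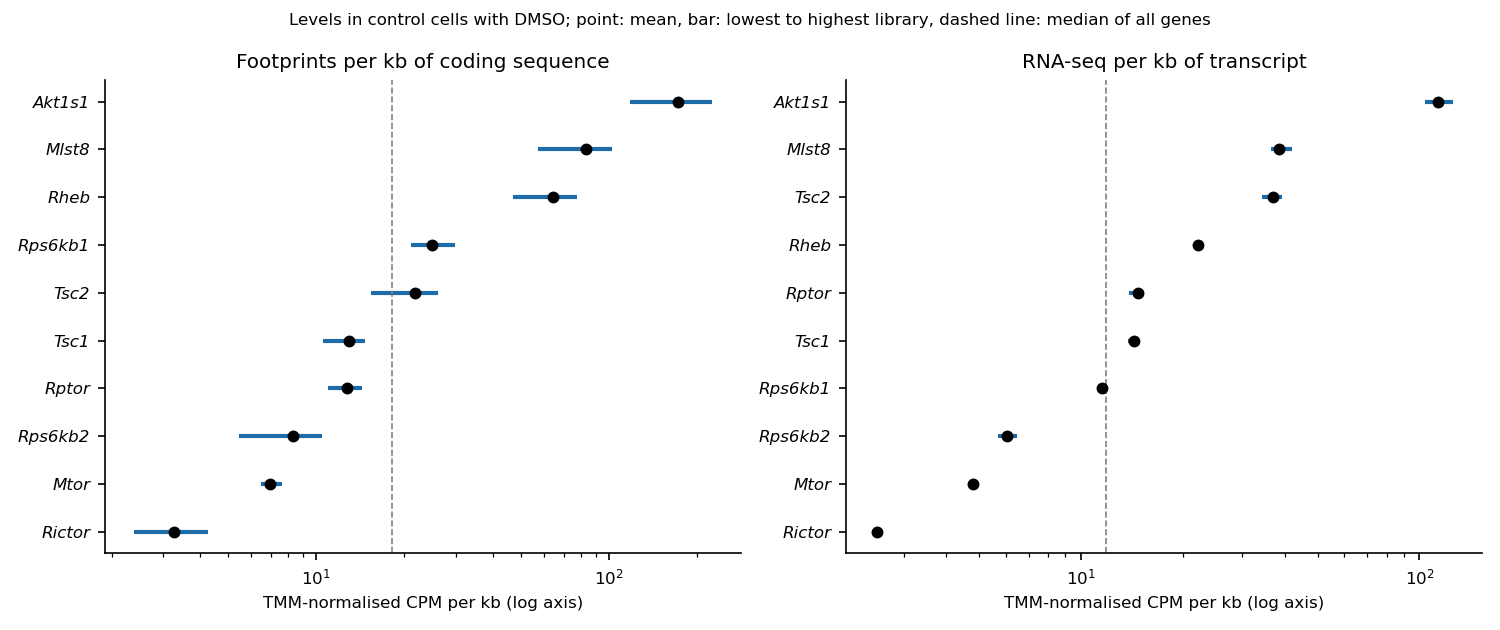
Mean (points) and lowest to highest library (bars) of the 10 genes in control cells with DMSO, as TMM-normalised CPM per kb on a log axis, for footprints (left, n = 6) and RNA-seq (right, n = 3); the dashed line is the median of all genes. Akt1s1 is at the top and Rictor at the bottom of both panels, and the member levels span from 3.25 to 172.5 footprint CPM per kb.

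The comparison of torin 1 with DMSO asks how mTOR inhibition for 2 h changed the mRNAs of the pathway's own parts. Rictor and Tsc1 transcripts rose in both genotypes, Mlst8 transcripts fell in control cells, and no other member was called in either genotype by edgeR's quasi-likelihood test with TMM scaling and no replicate block. With this test, 3 of the 10 genes were called in control (2 higher and 1 lower, adjusted p under 0.05), beside 13.1% of the 9617 genes tested (5.69% higher and 7.4% lower). In Ctu1KO, 2 of the 10 were called, both higher, beside 8.25% of the 9619 genes tested (3.73% higher). DESeq2 called 5 members in control, beside 20.4% of all genes, and 3 in Ctu1KO, beside 16.7%: it added Rheb (adjusted p = 0.0439) and Rps6kb1 (adjusted p = 0.0249) in control and Rps6kb1 (adjusted p = 0.0399) in Ctu1KO. Libraries of the treatments did not overlap for 6 members in control and 7 in Ctu1KO, beside 33.1% and 30.4% of all genes.

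Rictor, which makes an mTOR complex into mTORC2, lies at chr15:6708379-6800401 (plus strand). Its transcripts stood at 22.9, 23.0 and 23.9 CPM in control with DMSO and at 39.1, 38.1 and 37.0 CPM with torin 1. In Ctu1KO they stood at 25.8, 25.2 and 21.1 CPM with DMSO and at 38.1, 35.2 and 36.2 CPM with torin 1. Every torin 1 library lay above every DMSO library in both genotypes. The log2 fold change was 0.71 ± 0.06 in control (SE, adjusted p = 0.00117), a 1.63-fold rise, and 0.59 ± 0.10 in Ctu1KO (SE, adjusted p = 0.0178). The call in Ctu1KO was lost without Ctu1KO replicate 1 or 2 of either treatment, where adjusted p came to between 0.0515 and 0.0646 and the log2 fold change to between 0.56 and 0.65.

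Tsc1, the hamartin subunit of the TSC complex, lies at chr2:28641228-28691167 (plus strand). Its transcripts stood at 111, 114 and 106 CPM in control with DMSO and at 173, 158 and 142 CPM with torin 1. In Ctu1KO they stood at 115, 117 and 110 CPM with DMSO and at 196, 180 and 167 CPM with torin 1. The treatments were again apart in both genotypes. The log2 fold change was 0.51 ± 0.08 in control (SE, adjusted p = 0.00945) and 0.66 ± 0.09 in Ctu1KO (SE, adjusted p = 0.00857). Without Ctu1KO replicate 1 or 2 with DMSO, the latter was no longer called (adjusted p between 0.0503 and 0.0529). Its partner Tsc2, the GTPase-activating subunit, lay between 206 and 236 CPM in control with DMSO and between 224 and 246 CPM with torin 1, and was not called (adjusted p of at least 0.186 in the 4 comparisons of treatments and genotypes).

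Mlst8, the WD40 subunit that both complexes share, lies at chr17:24473551-24479078 (minus strand). Its transcripts stood at 122, 126 and 141 CPM in control with DMSO and at 87.7, 92.2 and 106 CPM with torin 1. In Ctu1KO they stood at 119, 122 and 140 CPM with DMSO and at 96.4, 109 and 116 CPM with torin 1. All torin 1 libraries lay below all DMSO libraries. The log2 fold change was -0.44 ± 0.09 in control (SE, adjusted p = 0.0238) and -0.26 ± 0.10 in Ctu1KO (SE, adjusted p = 0.182, not called). Leaving out any of the 3 control DMSO libraries or control torin 1 replicate 1 or 2 ended the call in control (adjusted p between 0.0551 and 0.0969).

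Rps6kb1, the kinase S6K1, stood at 62.9, 62.9 and 65.2 CPM in control with DMSO and at 53.4, 54.7 and 58.0 CPM with torin 1. In Ctu1KO its transcripts stood at 51.6, 54.2 and 59.6 CPM with DMSO and at 41.9, 43.9 and 48.4 CPM with torin 1. The groups did not overlap, but the gene was not called (log2 fold change -0.20 ± 0.06, SE, adjusted p = 0.0763 in control, and -0.31 ± 0.09, SE, adjusted p = 0.0905 in Ctu1KO). Without Ctu1KO replicate 3 with torin 1, the latter passed (-0.38, adjusted p = 0.0482). With library totals in place of TMM, edgeR called Rps6kb1 in control (adjusted p = 0.037) and in Ctu1KO (adjusted p = 0.0465). That scaling moved the median transcript of all genes to -0.029 and -0.057 on the log2 scale, and Rps6kb1 with it, to -0.23 and -0.37. Mtor transcripts went from 39.6, 42.1 and 41.9 CPM to 46.0, 47.6 and 44.0 CPM in control (log2 fold change 0.15 ± 0.06, SE, adjusted p = 0.169). Those of Rheb went from 40.7, 39.9 and 38.4 CPM to 47.2, 42.6 and 46.1 CPM (0.19 ± 0.07, SE, adjusted p = 0.112). The log2 fold changes of Rptor transcripts lay between -0.02 and 0.03 over the 4 comparisons of treatments and genotypes, the narrowest range of the 10 genes. Same-numbered libraries deviated together in these data, and with the replicate number as a block the count of called members went from 3 to 6 in control and from 2 to 4 in Ctu1KO, beside 43.7% and 35.1% of all genes. The block added Mtor (adjusted p = 0.0281), Rheb (adjusted p = 0.0107) and Rps6kb1 (adjusted p = 0.00367) in control, and Mlst8 (adjusted p = 0.0131) and Rps6kb1 (adjusted p = 0.00488) in Ctu1KO.

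**Figure D3:**
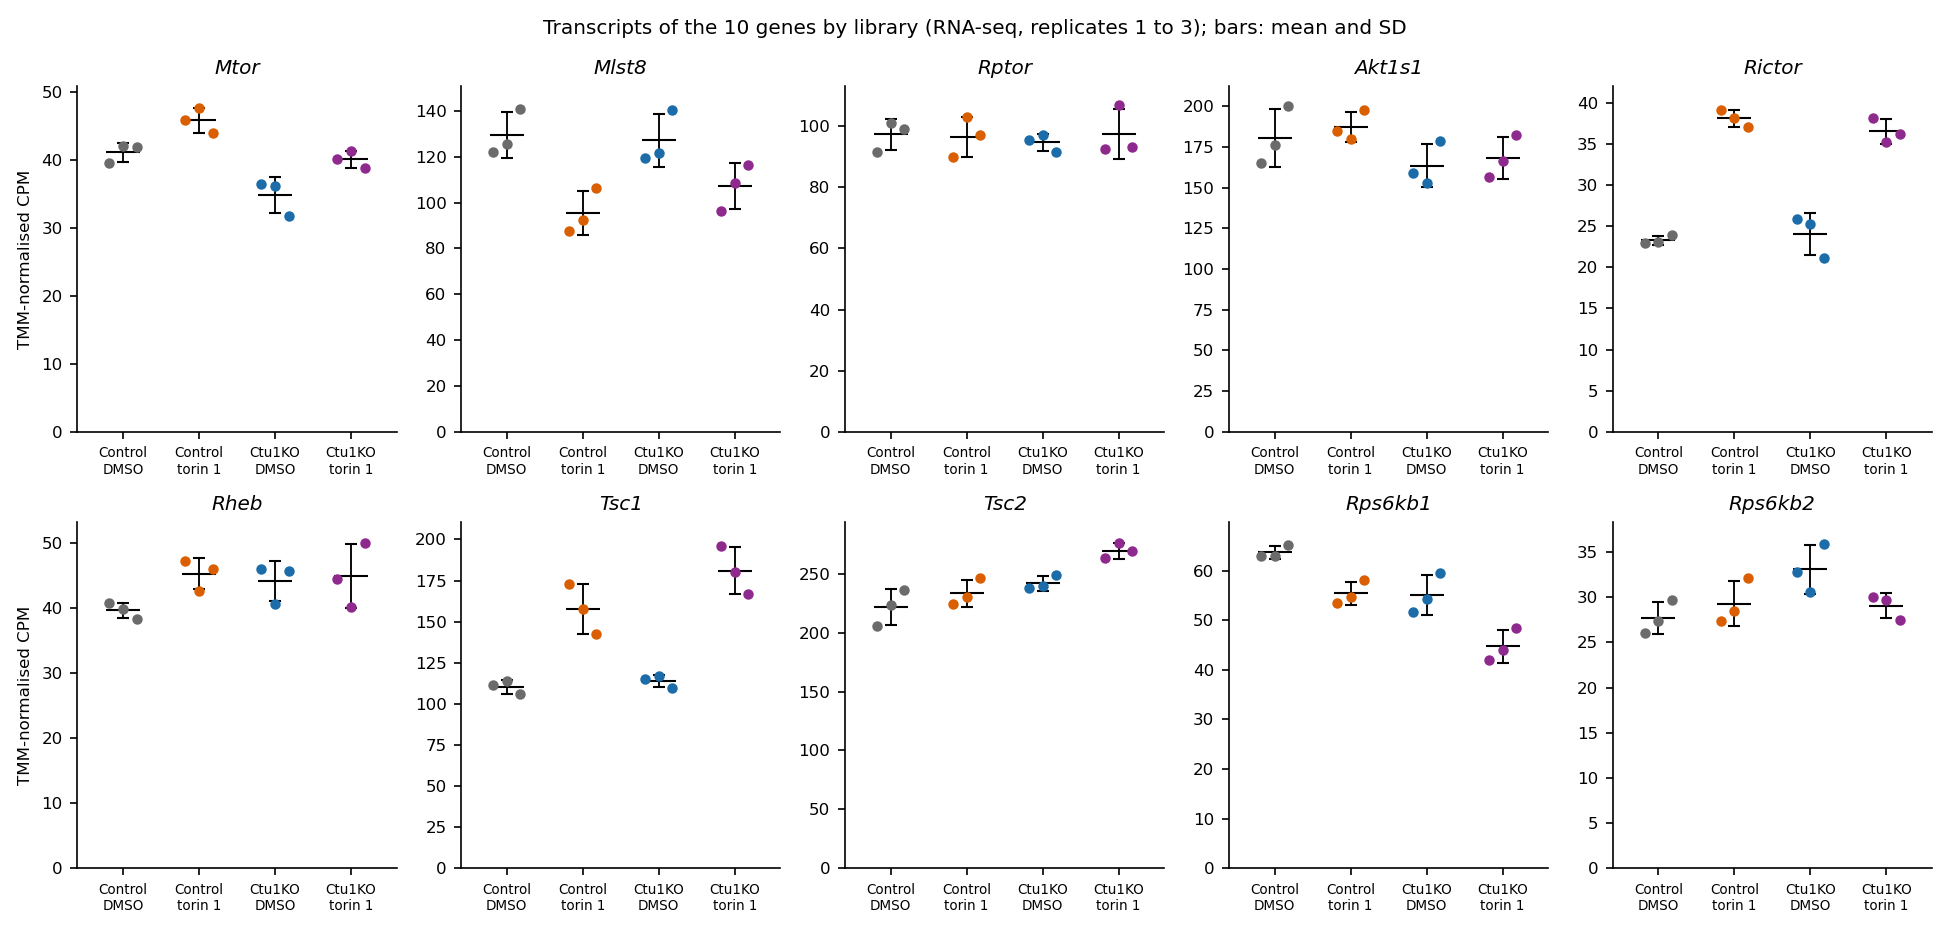
RNA-seq level of each of the 10 genes by library (points, replicates 1 to 3) in the 4 groups, as TMM-normalised CPM on axes that start at 0, with mean and SD. Rictor and Tsc1 are higher with torin 1 in both genotypes, up to 39.1 and 196 CPM, and Mlst8 is lower, down to 87.7 CPM.

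Footprints give the amount of ribosomes on these mRNAs relative to all others. In control, none of the 10 genes was called with torin 1 (edgeR with TMM scaling and no block), beside 7.24% of the 9856 genes tested, and 3 had an unadjusted p under 0.05, beside 21.0% of all genes. In Ctu1KO, edgeR called Rictor alone, as higher, beside 8% of the 9855 genes (3.48% higher), and it was also the only member whose treatments did not overlap, beside 8.16% of all genes. DESeq2 called Tsc1 in control (adjusted p = 0.0335), 1 of 10 members beside 10.8% of all genes, and Rptor as well as Rictor in Ctu1KO (adjusted p = 0.0339 for Rptor), 2 of 10 beside 11.8%. Relative to library totals alone, the median gene was 0.104 higher with torin 1 in control and 0.115 higher in Ctu1KO on the log2 scale, and changes here are relative to the TMM centre. Scaled to library totals, Tsc1 (adjusted p = 0.0229) and Rptor (adjusted p = 0.0364) were called in control and Rptor (adjusted p = 0.0273) in Ctu1KO.

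Rictor footprints lay between 12.2 and 21.9 CPM in control with DMSO (median 16.8) and between 18.2 and 28.9 CPM with torin 1 (median 21.9). In Ctu1KO they came to 16.3, 18.4, 18.9, 22.9 and 21.6 CPM with DMSO and lay between 23.4 and 31.1 CPM with torin 1 (median 28.0). The treatments overlapped in control and were apart in Ctu1KO. The log2 fold change was 0.46 ± 0.17 in control (SE, adjusted p = 0.115) and 0.50 ± 0.13 in Ctu1KO (SE, adjusted p = 0.0357). The call in Ctu1KO rested on a narrow margin: leaving out Ctu1KO DMSO replicate 1, 2, 3 or 5 or torin 1 replicate 3, 4, 5 or 6 ended it (adjusted p between 0.0538 and 0.0847), while the log2 fold change stayed between 0.44 and 0.53 in those fits. The call was also lost with the replicate number as a block (adjusted p = 0.0678), although the numbers were not shown to pair the Ctu1KO footprint libraries, and in replicates 1 to 3 alone (adjusted p = 0.319).

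Tsc1 footprints lay between 36.6 and 50.9 CPM in control with DMSO (median 46.0) and between 48.4 and 67.1 CPM with torin 1 (median 60.0), with a small overlap (log2 fold change 0.37 ± 0.12, SE, adjusted p = 0.0755). In Ctu1KO they came to 39.8, 33.7, 62.3, 53.9 and 42.2 CPM with DMSO and lay between 37.4 and 81.9 CPM with torin 1 (0.45 ± 0.20, SE, adjusted p = 0.204). Rptor, whose product selects the substrates of mTORC1, lay between 43.8 and 57.5 CPM in control with DMSO (median 51.2) and between 53.5 and 73.9 CPM with torin 1 (median 61.7). The log2 fold change of its footprints was 0.27 ± 0.10 (SE, adjusted p = 0.124) in control. In Ctu1KO it was 0.35 ± 0.11 (SE, adjusted p = 0.0813), and 0.44 without Ctu1KO DMSO replicate 3, where Rptor passed (adjusted p = 0.028). Mlst8 footprints were lower in the mean, at 64.5 ± 19.3 CPM with torin 1 against 81.7 ± 15.8 CPM with DMSO in control (SD, n = 6 each), with wide overlap (-0.34 ± 0.20, SE, adjusted p = 0.368). Without control torin 1 replicate 1, the lowest of its group, the Mlst8 footprint change was -0.20. In Ctu1KO they came to 51.0, 72.9, 101.8, 83.9 and 97.1 CPM with DMSO and lay between 39.4 and 78.5 CPM with torin 1 (median 63.8). The groups overlapped and Mlst8 was not called there (-0.42 ± 0.20, SE, adjusted p = 0.248).

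Same-numbered control libraries also deviated together in footprints, and with the replicate number as a block 4 members were called in control, beside 20.5% of all genes. These were Rictor (0.47 ± 0.09, SE, adjusted p = 0.00384), Tsc1 (0.37 ± 0.07, SE, adjusted p = 0.00414) and Rptor (0.26 ± 0.08, SE, adjusted p = 0.0325) as higher and Mlst8 (-0.38 ± 0.10, SE, adjusted p = 0.0163) as lower. In Ctu1KO the block called 1 member, Mlst8 as lower (-0.51 ± 0.12, SE, adjusted p = 0.0284), beside 9.97% of all genes, and no longer Rictor. Rps6kb2 footprints, which encode the kinase S6K2, ran from 3.18 to 27 CPM in control with torin 1 and from 15.9 to 27.7 CPM in Ctu1KO with torin 1. Its footprint change in Ctu1KO was 0.63 ± 0.27 on the log2 scale (SE, adjusted p = 0.188), and 0.93 without Ctu1KO DMSO replicate 1, the library in which it stood highest of its group (24.4 CPM), where it passed (adjusted p = 0.0248). Footprints of Mtor, Akt1s1, Rheb, Tsc2 and Rps6kb1 had overlapping treatments in both genotypes and were not called. In footprints and in transcripts of the 10 genes, no difference between the torin 1 effects in Ctu1KO and in control was called (interaction, adjusted p = 0.9998 for every member), beside 0.639% of 9857 genes in footprints and 0% of 9616 in transcripts. Member interactions ran from -0.27 (Rheb) to 0.39 (Rps6kb2) in footprints and from -0.27 (Rps6kb2) to 0.19 (Mlst8) in transcripts. With 1 library left out, those in footprints ran from -0.33 to -0.185 for Rheb and from 0.19 to 0.69 for Rps6kb2. Those in transcripts ran from -0.34 to -0.20 for Rps6kb2 and from 0.11 to 0.28 for Mlst8. In transcripts 140 of the 9616 genes (1.456%) had an unadjusted interaction p under 0.05 in edgeR, and DESeq2 called 3.

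**Figure D4:**
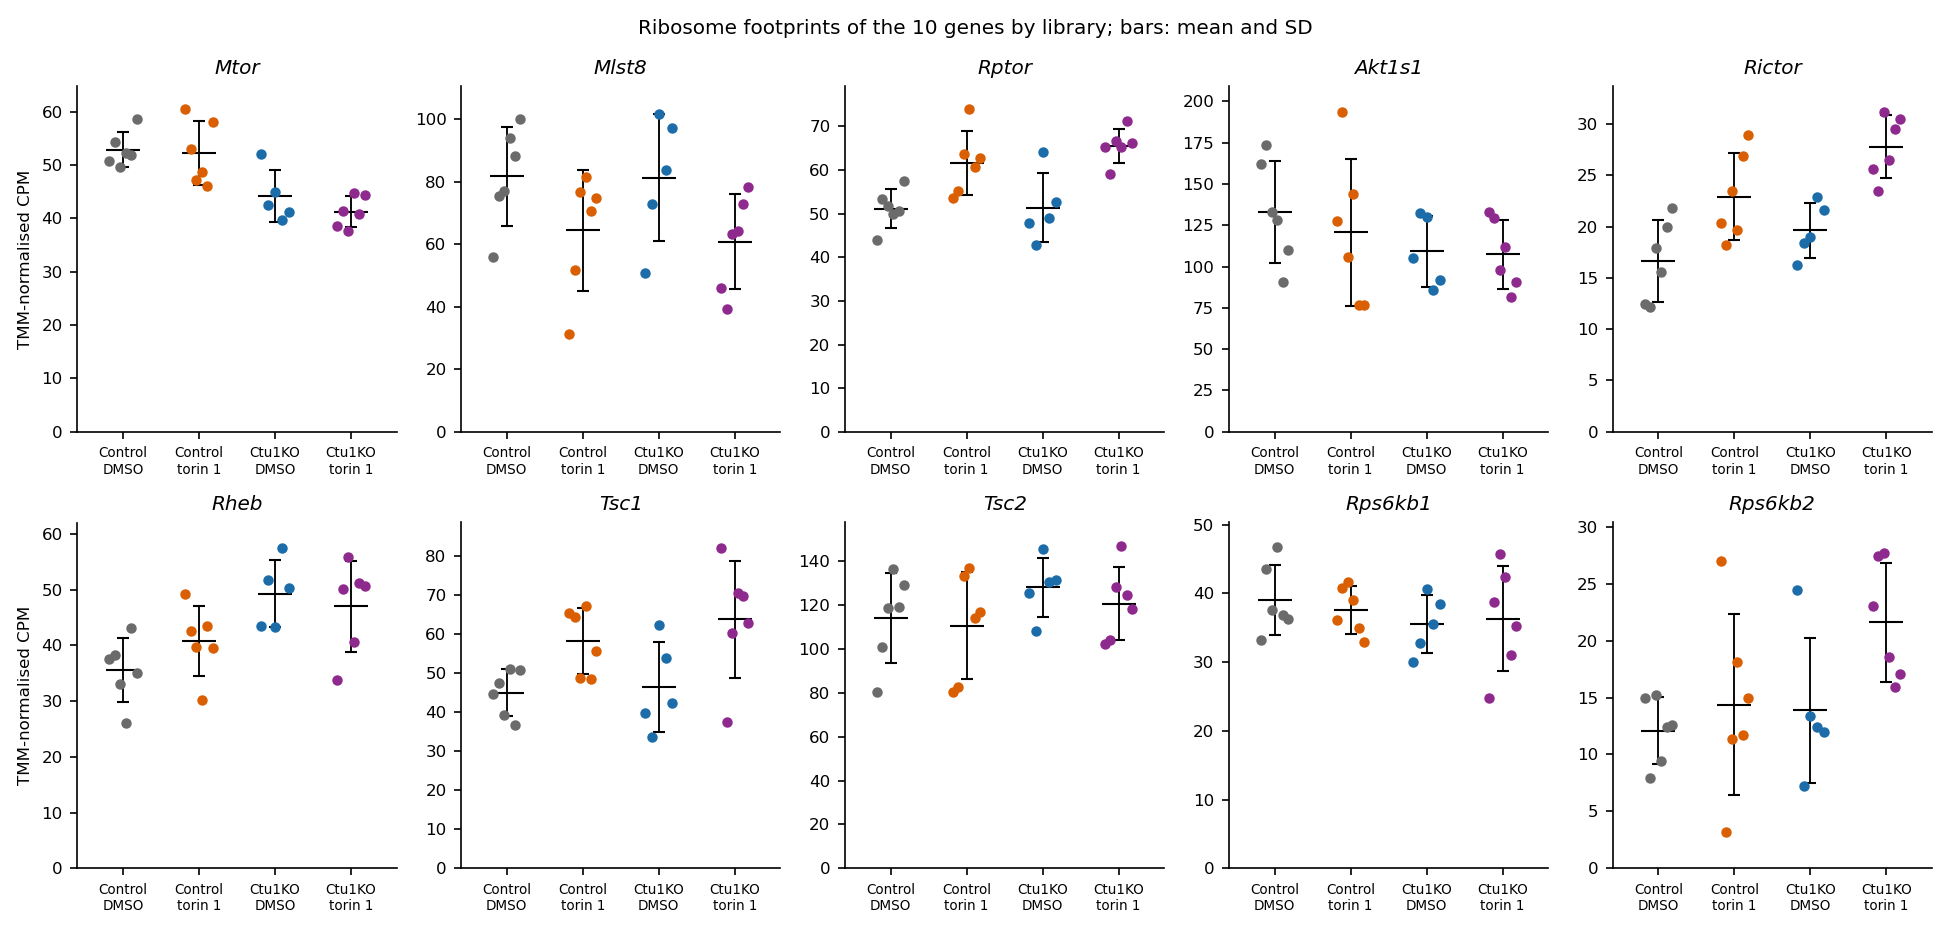
Ribosome footprints of each of the 10 genes by library (points) in the 4 groups, as TMM-normalised CPM on axes that start at 0, with mean and SD; n = 6, 6, 5 and 6 libraries. In Ctu1KO, Rictor with torin 1 lies above all DMSO libraries (from 23.4 CPM against at most 22.9 CPM), and the treatments overlap for the other members.

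Translational efficiency, the footprint level of a gene relative to its transcripts, was compared through the assay by treatment interaction. No member was called with torin 1, beside 1.14% of the 9848 genes in control and 1.67% of the 9845 genes in Ctu1KO. For Rictor the log2 ratio of footprints to transcripts was -0.88, -0.92 and -0.42 in control with DMSO and -0.94, -1.07 and -0.66 with torin 1, so that the groups overlapped. For Tsc1 it was -1.32, -1.26 and -1.43 with DMSO and -1.41, -1.30 and -1.55 with torin 1. The change in efficiency of Rictor was -0.16 on the log2 scale with a 95% interval from -0.59 to 0.26, and that of Tsc1 was -0.07 with an interval from -0.43 to 0.29 (0.06 with library totals in place of TMM, which moved the median of all genes from 0.03 to 0.16). Over the 10 genes in control, changes in efficiency ran from -0.19 (Akt1s1) to 0.26 (Rps6kb1). In Ctu1KO they ran from -0.45 (Mtor, unadjusted p = 0.0265, adjusted p = 0.443) to 0.99 (Rps6kb2, unadjusted p = 0.0432, adjusted p = 0.537). The latter ran from 0.70 to 1.54 when the footprint and RNA-seq libraries of 1 replicate in a group were left out together. By comparison, the log2 change in efficiency of Rps6, whose TOP start is printed above, was -1.37 ± 0.19 in control (SE, adjusted p = 0.00171) and -1.91 ± 0.23 in Ctu1KO (SE, adjusted p = 0.000326). The intervals of Rictor and Tsc1 in control did not reach these values.

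The comparison of Ctu1KO with control asks whether loss of the wobble modification changed the pathway's mRNAs or their translation. With edgeR, TMM scaling and no replicate block, no member was called in footprints with DMSO, beside 2.66% of 10397 genes, or with torin 1, beside 4.83% of 9913 genes. With the same test none was called in transcripts, beside 5.12% of 10119 genes with DMSO and 1.31% of 9650 genes with torin 1, and none in translational efficiency, beside 0% of 10386 genes with DMSO and 0.111% of 9901 genes with torin 1. With DMSO, 399 of the 10386 genes (3.842%) had an unadjusted p under 0.05 in efficiency with edgeR, and DESeq2 called 21. DESeq2 called Rheb in footprints with DMSO (0.48 on the log2 scale, adjusted p = 0.0148), 1 of 10 members beside 6.73% of all genes, and Mtor with torin 1 (-0.34, adjusted p = 0.025), 1 of 10 beside 8.49%. In transcripts DESeq2 called Rps6kb2 with DMSO (adjusted p = 0.0482), 1 of 10 beside 15.1%, and Rps6kb1 (adjusted p = 0.0207) and Tsc2 (adjusted p = 0.0493) with torin 1, 2 of 10 beside 11.3%. With edgeR, unadjusted p was under 0.05 for 2 members in footprints with DMSO and 1 with torin 1, beside 17.9% and 18.8% of all genes, and for 4 and 3 members in transcripts, beside 24.4% and 20.02%.

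Mtor, the kinase subunit, had a log2 fold change below 0 in footprints and transcripts with both treatments, and edgeR without the replicate block called none of these 4 values. Its footprints lay between 49.6 and 58.6 CPM in control with DMSO (median 52.0) and at 52.1, 42.6, 45.0, 39.7 and 41.2 CPM in Ctu1KO (log2 fold change -0.26 ± 0.10, SE, adjusted p = 0.167). With torin 1 they lay between 46.0 and 60.6 CPM in control (median 50.9) and between 37.6 and 44.8 CPM in Ctu1KO (median 41.1), without overlap (-0.34 ± 0.11, SE, adjusted p = 0.0822). It was the only member whose genotypes were apart in footprints with torin 1, beside 4.31% of all genes. With the replicate number as a block it was called there (-0.33 ± 0.09, SE, adjusted p = 0.0358), 1 of 10 members beside 14.4% of all genes. Mtor transcripts also lay apart, at 36.5, 36.2 and 31.8 CPM in Ctu1KO against at least 39.6 CPM in control with DMSO (-0.22 ± 0.08, SE, adjusted p = 0.124), and with torin 1 at 40.1, 41.4 and 38.8 CPM against at least 44.0 CPM (-0.18 ± 0.08, SE, adjusted p = 0.234).

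Rheb footprints lay between 26.0 and 43.1 CPM in control with DMSO (median 36.3) and at 43.4, 51.8, 43.2, 57.5 and 50.3 CPM in Ctu1KO. The groups just failed to overlap, as for 4.62% of all genes, and the log2 fold change was 0.48 ± 0.13 (SE, adjusted p = 0.0691). With torin 1 the genotypes overlapped, from 30.3 to 49.3 CPM in control and from 33.9 to 55.8 CPM in Ctu1KO. Rheb transcripts stood at 46.1, 40.6 and 45.7 CPM in Ctu1KO and 40.7, 39.9 and 38.4 CPM in control with DMSO, with overlap (0.17 ± 0.07, SE, adjusted p = 0.202). Of the other members rich in VAA codons, Rictor and Rps6kb1 had overlapping genotypes in footprints with both treatments and were not called.

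Akt1s1 footprints had the lowest log2 fold change of the members with DMSO, from between 90.8 and 173.7 CPM in control (median 130.4) to 105.4, 132.6, 130.2, 85.7 and 92.1 CPM in Ctu1KO, with overlap (-0.28 ± 0.17, SE, adjusted p = 0.415). Those of Rps6kb2 had the highest with torin 1, at a median of 13.3 CPM in control and 20.8 CPM in Ctu1KO, also with overlap (0.58 ± 0.34, SE, adjusted p = 0.398). That change was 0.38 without control torin 1 replicate 2, in which Rps6kb2 stood lowest, and 0.85 without control torin 1 replicate 1, in which it stood highest.

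In transcripts, libraries of the genotypes were apart for 4 members with DMSO and for 3 with torin 1, beside 31.6% and 26.5% of all genes. Rps6kb1 transcripts were lower in Ctu1KO with both treatments, at most 59.6 CPM against at least 62.9 CPM with DMSO (-0.19 ± 0.07, SE, adjusted p = 0.165) and at most 48.4 CPM against at least 53.4 CPM with torin 1 (-0.30 ± 0.09, SE, adjusted p = 0.129). Rps6kb2 transcripts stood at 32.7, 30.5 and 35.9 CPM in Ctu1KO and 26.1, 27.4 and 29.6 CPM in control with DMSO (0.27 ± 0.09, SE, adjusted p = 0.109). Tsc2 stood at 237, 239 and 249 CPM in Ctu1KO and 206, 223 and 236 CPM in control with DMSO, and at 263, 276 and 269 CPM and 224, 230 and 246 CPM with torin 1 (0.22 ± 0.08, SE, adjusted p = 0.186 with torin 1). With the replicate number as a block, 3 members were called with DMSO and 5 with torin 1, beside 28% and 32.8% of all genes. With DMSO these were Mtor (adjusted p = 0.0355) and Rps6kb1 (adjusted p = 0.0338) as lower and Rps6kb2 (adjusted p = 0.013) as higher. With torin 1 they were Mtor (adjusted p = 0.0362) and Rps6kb1 (adjusted p = 0.00543) as lower and Mlst8 (adjusted p = 0.0403), Tsc1 (adjusted p = 0.0163) and Tsc2 (adjusted p = 0.0164) as higher. Without the block, transcripts of Mlst8 (0.17 ± 0.11, SE, adjusted p = 0.419) and Tsc1 (0.21 ± 0.10, SE, adjusted p = 0.314) overlapped between the genotypes with torin 1. Changes in efficiency with Ctu1 loss ran from -0.22 (Akt1s1) to 0.27 (Rictor) with DMSO and from -0.29 (Mtor) to 0.88 (Rps6kb2) with torin 1, with an adjusted p of at least 0.9999 for each of the 10 genes. These extremes moved when the footprint and RNA-seq libraries of 1 replicate in a group were left out together. With DMSO they ran from -0.41 to -0.13 for Akt1s1 and from 0.13 to 0.45 for Rictor. With torin 1 they ran from -0.31 to -0.16 for Mtor and from 0.47 to 1.89 for Rps6kb2.

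**Figure D5:**
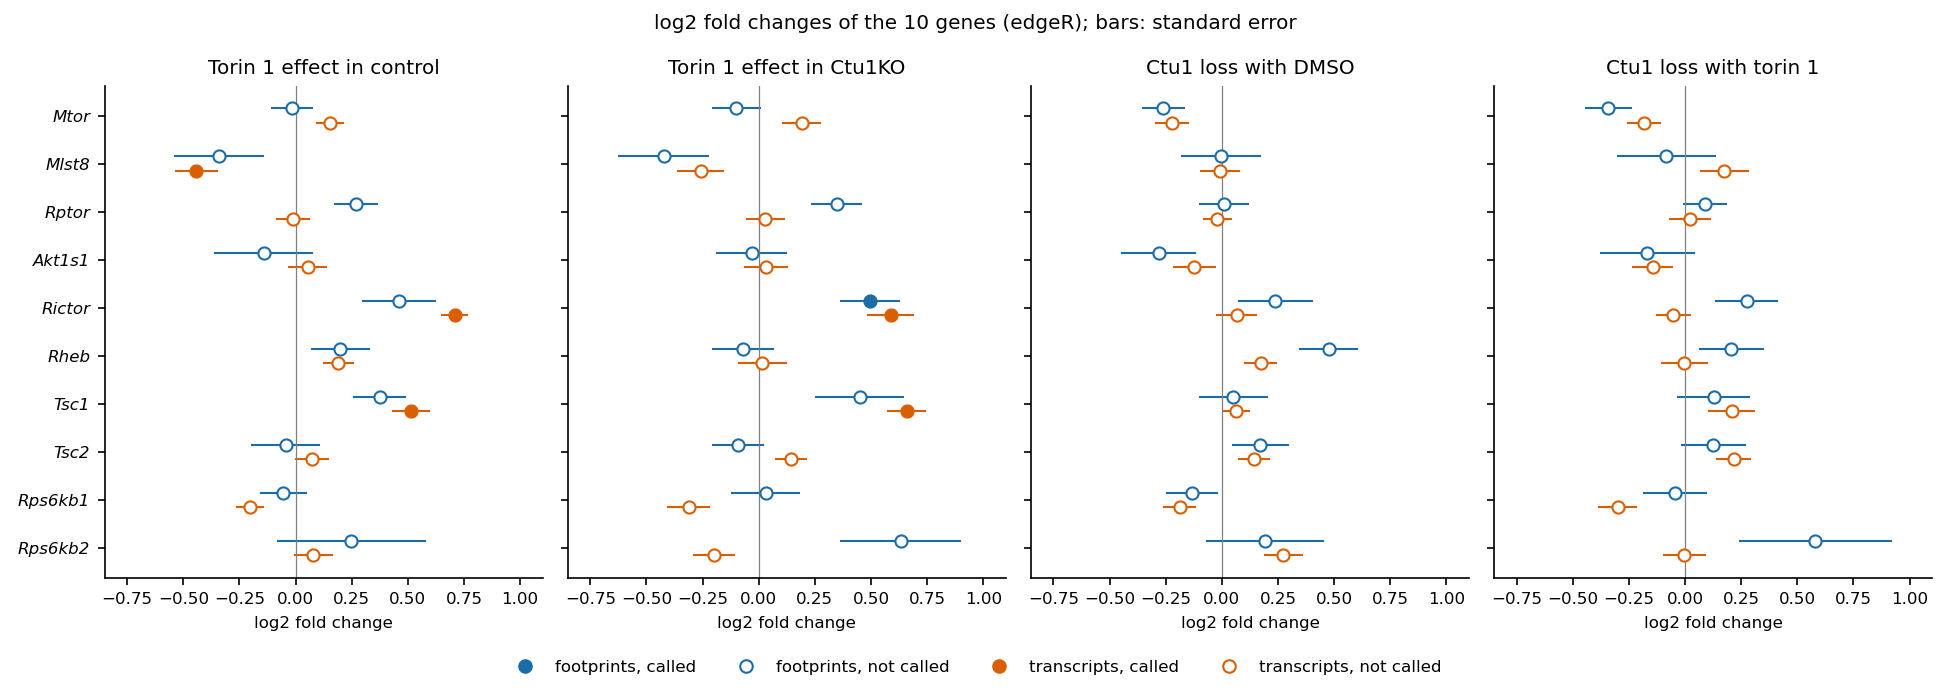
log2 fold changes of the 10 genes in footprints (blue) and transcripts (orange) for the 4 comparisons, with standard errors from edgeR; filled points had an adjusted p under 0.05. The filled points are Rictor and Tsc1 transcripts in both genotypes, Mlst8 transcripts in control and Rictor footprints in Ctu1KO, all in the torin 1 comparisons, and none is filled for Ctu1 loss.

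A list of 70 further genes of the pathway sets these members in context, of which 61 were in the tables. In control with torin 1, 13 of the 60 tested rose and 4 fell in transcripts, and 9 rose and 4 fell in footprints, where 13.1% and 7.24% of all genes were called in either direction. In Ctu1KO, 9 rose and 3 fell in transcripts, and 7 rose and 3 fell in footprints, beside 8.25% and 8% of all genes. The largest rise in control transcripts was that of Sgk1, a kinase that mTORC2 phosphorylates, from 333 ± 9.73 to 880 ± 23.9 CPM in transcripts (log2 fold change 1.40 ± 0.06, SE, adjusted p = 0.000185). Irs2, the insulin receptor substrate, rose by 1.33 ± 0.08 (SE, adjusted p = 0.000401) and Rhebl1, the paralogue of Rheb, by 1.39 ± 0.14 (SE, adjusted p = 0.00184). Transcripts of Ddit4, which encodes the mTORC1 inhibitor REDD1, fell from 10.7 ± 1.79 to 5.06 ± 0.45 CPM (SD, n = 3 each, log2 fold change -1.08 ± 0.14, SE, adjusted p = 0.00495), and so did those of Larp1, a repressor of TOP mRNAs (-0.49 ± 0.10, SE, adjusted p = 0.0176), and Fnip2, a folliculin partner (-0.42 ± 0.07, SE, adjusted p = 0.0122). The call of Larp1 was lost without control DMSO replicate 2 (adjusted p = 0.0793) and that of Fnip2 without control DMSO or torin 1 replicate 2 (adjusted p between 0.0595 and 0.0655). In footprints the largest falls in control were those of Rps6 (-1.10 ± 0.08, SE, adjusted p = 6.19e-07), Ddit4 (-1.09 ± 0.23, SE, adjusted p = 0.00813) and Eif4b (-0.86 ± 0.12, SE, adjusted p = 0.00022), and the largest rises those of Sgk1 (1.38 ± 0.14, SE, adjusted p = 7.17e-06), Irs2 (1.34 ± 0.17, SE, adjusted p = 9.9e-05) and Fnip1 (1.34 ± 0.17, SE, adjusted p = 9.8e-05).

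By group, the Rag GTPases, Ragulator and folliculin genes held 3 footprint rises and no fall among 11 tested in control, the GATOR, KICSTOR and sensor genes held none among 14, the growth factor and energy genes 2 rises and 1 fall among 15, and the downstream targets 4 rises and 3 falls among 13, all beside 7.24% of all genes. Median log2 changes of these groups in footprints were 0.26, 0.18, 0.22 and 0.00 in control, beside 0.01 over all genes, and 0.13, -0.0068, 0.20 and -0.24 in Ctu1KO, beside 0.02. In transcripts they were 0.06, 0.06, 0.07 and 0.06 in control and 0.08, 0.05, -0.0060 and 0.0075 in Ctu1KO. The 5 genes tested of other complex subunits and associated proteins (Deptor and Tti2 among them) and Tbc1d7 and Rhebl1 had no call in footprints. In Ctu1KO the falls in footprints were those of Rps6 (-1.70 ± 0.10, SE, adjusted p = 2.84e-08), Eif4b (-1.06 ± 0.11, SE, adjusted p = 1.96e-05) and Eif4ebp2 (-0.91 ± 0.19, SE, adjusted p = 0.00829), and the rises were led by Irs2 (1.59 ± 0.24, SE, adjusted p = 0.000741), Sgk1 (1.34 ± 0.15, SE, adjusted p = 3.08e-05) and Lpin1 (1.15 ± 0.32, SE, adjusted p = 0.04). The Lpin1 call was lost in 10 of 11 fits that left out 1 library, all but that without Ctu1KO torin 1 replicate 1 (adjusted p between 0.0588 and 0.0942). Transcripts of Ddit4 (-1.43 ± 0.20, SE, adjusted p = 0.00951), Tti2 (-0.55 ± 0.08, SE, adjusted p = 0.0111) and Larp1 (-0.54 ± 0.10, SE, adjusted p = 0.0211) fell there, and those of Rhebl1 (1.48 ± 0.27, SE, adjusted p = 0.0184), Sgk1 (1.41 ± 0.09, SE, adjusted p = 0.000744) and Irs2 (1.32 ± 0.09, SE, adjusted p = 0.00106) rose most. Of these transcript calls, that of Ddit4 was lost without Ctu1KO torin 1 replicate 2 (adjusted p = 0.0511), that of Tti2 without Ctu1KO DMSO replicate 1 or 2 (at most 0.0629), that of Larp1 without any 1 of the 3 Ctu1KO DMSO libraries (at most 0.104) and that of Rhebl1 without Ctu1KO DMSO replicate 1 or 2 or torin 1 replicate 2 (at most 0.0805). In translational efficiency 2 of the 60 genes fell in each genotype, Rps6 and Eif4b, and none rose, beside 1.14% and 1.67% of all genes. The call of Eif4b in control was lost without control DMSO replicate 1 or 2 (adjusted p between 0.0643 and 0.095).

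With Ctu1 loss, 3 of 61 of these genes rose in footprints with DMSO, beside 2.66% of all genes called: Sesn2, the leucine sensor that is also a stress response gene (1.23 ± 0.19, SE, adjusted p = 0.004), Fnip1 (0.75 ± 0.18, SE, adjusted p = 0.0427) and Lamtor4 of the Ragulator (0.66 ± 0.15, SE, adjusted p = 0.0365). Leaving out 1 library ended the Fnip1 call in 9 of 11 fits, all but those without control DMSO replicate 6 or Ctu1KO DMSO replicate 1 (adjusted p up to 0.0907), and the Lamtor4 call in 7 of 11 (up to 0.0836, without control DMSO replicate 3, 5 or 6 or Ctu1KO DMSO replicate 1, 2, 3 or 5). In transcripts with DMSO, Sesn2 rose from 8.03 ± 0.66 to 22.1 ± 2.96 CPM of the library total (SD, n = 3 each, log2 fold change 1.48 ± 0.12, SE, adjusted p = 0.00602) and Ulk1, the kinase that starts autophagy, fell (-0.34 ± 0.07, SE, adjusted p = 0.0349), 2 of 61 beside 5.12% of all genes. The Ulk1 call was lost in all 6 fits that left out 1 library (adjusted p between 0.0519 and 0.168), and that of Sesn2 without control DMSO replicate 2 (adjusted p = 0.0514). With torin 1, footprints of Eef2k (0.61 ± 0.15, SE, adjusted p = 0.029), Pik3r1 (0.53 ± 0.14, SE, adjusted p = 0.0433) and Flcn (0.48 ± 0.12, SE, adjusted p = 0.0389) and transcripts of Fnip2 (0.63 ± 0.09, SE, adjusted p = 0.0322) were higher in Ctu1KO, and footprints of Rps6 were lower, at 133 ± 12.4 against 215 ± 13.5 CPM (SD, n = 6 each, log2 fold change -0.69 ± 0.09, SE, adjusted p = 0.000235). These were 4 of 60 in footprints, beside 4.83% of all genes, and 1 of 60 in transcripts, beside 1.31%. Calls were lost when 1 library was left out for Eef2k in 6 of 12 fits (control torin 1 replicate 1, 3, 5 or 6, Ctu1KO torin 1 replicate 2 or 4, adjusted p up to 0.0684), for Pik3r1 in 9 of 12 (all but control replicates 1 and 5 and Ctu1KO replicate 2, up to 0.104), for Flcn in 10 of 12 (all but Ctu1KO replicates 2 and 6, up to 0.0875) and for Fnip2 in 5 of 6 (all but Ctu1KO replicate 3, up to 0.253). Rps6 was also the only gene of the list whose footprint response to torin 1 was called as different between the genotypes (interaction -0.59 ± 0.12, SE, adjusted p = 0.0117), 1 of 60 beside 0.639% of all genes.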

How the data were processed

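Ribosome profiling and RNA-seq libraries were grouped by their labels. Per the authors' methods, footprint reads were trimmed, freed of rRNA reads and counted per gene with STAR, and RNA-seq reads went through the workflow of a core facility. The submitters' processing notes name cutadapt 3.4, STAR 2.5.3a, UMI-tools 1.1.1 and mm10 (GRCm38), whereas the text of the methods names a human build. The deposited values are raw counts per gene, without normalisation. Every listed entry had at least 100 footprint counts in 1 library, so weaker genes could not be tested, and all RNA-seq counts are even numbers. Whether identical molecular identifiers were collapsed and whether RNA-seq was counted by strand are not given in the sources used here.

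edgeR's quasi-likelihood test (version 4.0.16, R 4.3.3) was applied, after TMM normalisation, to genes with a mean count of at least 10, with Benjamini-Hochberg adjustment over all genes tested. Translational efficiency was the interaction of assay and group in 1 model of replicates 1 to 3, with TMM factors within each assay. Standard errors are the log2 fold change divided by the root of F, and 95% intervals are 1.96 standard errors to either side. Values per library are TMM-normalised CPM. Alternatives were DESeq2 1.42.0, library totals, other count filters, a block for the replicate number, all groups in 1 fit, other sets of replicates and each library left out. For translational efficiency, the footprint and RNA-seq libraries of a replicate were left out together. The numbers were taken to pair samples where libraries of the same number departed from the means of their groups together (r over 0.1 in every pair): in transcripts throughout (lowest r = 0.24) and in footprints for torin 1 in control (lowest r = 0.394) and for Ctu1 loss with torin 1 (lowest r = 0.303). This is a property of the data and not stated by the labels. Nothing in the labels says that the replicates are independent cultures. The paper's methods name fewer independent replicates than there are libraries, while its figure legends for footprints describe the replicates as independent experiments. Its legend for transcript levels names fewer independent experiments than the 3 RNA-seq libraries per group compared here. If some replicates are technical, p-values measure that spread in part.

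All 10 genes were described. Of a list of 70 other pathway genes, the counts per comparison and the 3 largest called changes in each direction were named. Members were given values one by one where their unadjusted p was under 0.05, where the block called them, or where theirs was the lowest or highest change of a comparison. The genes and the lists were chosen with earlier results of these data known. On simulated counts, changes of 1 and 0.5 on the log2 scale were recovered in 100% and 94% of genes in footprints, 100% and 75% in transcripts, and 91% and 19% in translational efficiency (torin 1 in control, 9857, 9617 and 9848 genes). All genes were simulated with the same small dispersion and without replicate structure, so these shares overstate recovery for genes that vary more. Rictor footprints, at 0.46 with torin 1 in control, were not called (adjusted p = 0.115, edgeR). Codons were counted in 1 GENCODE M21 coding sequence per gene, found for 97.27% of genes. Python 3.11.15, pandas 2.3.3, numpy 2.4.6 and matplotlib 3.10.9 were used for tables and figures.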

Additional observations from a re-analysis of the deposited data

Results flagged for a closer look

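Among the RNA-seq libraries that entered no comparison, those of replicates 4 to 6, 6 values of the genes called in both genotypes lay above the DMSO libraries of replicates 1 to 3, although the libraries are labelled DMSO. CPM here are normalised over all 23 RNA-seq libraries. Rictor stood at 30.2 CPM in the library labelled Ctu1KO DMSO replicate 4 and at 31.7 CPM in replicate 5, while the 6 DMSO libraries of replicates 1 to 3 lay between 21.1 and 25.8 CPM. Tsc1 stood at 187 CPM in the library labelled Ctu1KO DMSO replicate 4 and at 178 CPM in replicate 5, against 106 to 116 CPM in the DMSO libraries of replicates 1 to 3. Both libraries lay on the torin 1 side in the check of the treatment labels. Tsc1 also stood at 120 CPM in control DMSO replicate 5 and at 128 CPM in replicate 6, libraries that lay on the DMSO side in that check. The 4 libraries labelled torin 1 that lay on the DMSO side did not all stand at DMSO levels. Rictor stood at 22.02 and 25.31 CPM in control torin 1 replicates 5 and 6, within the DMSO range, and at 29.6 and 33.3 CPM in Ctu1KO torin 1 replicates 5 and 6, above it. Tsc1 stood above its DMSO range in all 4, at 130.2 and 121 CPM in control and at 136.8 and 131.3 CPM in Ctu1KO. Within the 40 groups of footprint values (10 genes in 4 groups), no library stood apart from its group by Dixon's criterion at 95%, by which chance marks about 1 group in 20.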

How the results depend on the processing

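Over 940 values of all 140 member results, 846 kept their direction and their side of the threshold and 46, of 36 results, changed sign. Over the 326 values of the 47 results given one by one (unadjusted p under 0.05, called with the block, or lowest or highest of a comparison, and the efficiency of Rictor and Tsc1), 275 kept their direction and their side of the threshold, 43 passed it where the reported value did not, 5 no longer passed and 3 changed sign. Except where stated, the cause was not tested. The lost calls were Rictor footprints in Ctu1KO with torin 1 (adjusted p = 0.0678 with the replicate block and 0.319 in replicates 1 to 3) and, with all RNA-seq replicates taken as labelled, transcripts of Mlst8 in control (adjusted p = 0.166) and of Rictor and Tsc1 in Ctu1KO (adjusted p = 0.969 and 0.974). In footprints with torin 1 in Ctu1KO, where the numbers were not shown to pair the libraries, the block also called Mlst8 as lower (-0.51, adjusted p = 0.0284). All 4 groups in 1 edgeR fit added calls of Rptor footprints with torin 1 in Ctu1KO (adjusted p = 0.0242), Mtor footprints with Ctu1 loss and torin 1 (adjusted p = 0.0185) and Rps6kb1 transcripts in both comparisons (adjusted p = 0.0173 and 0.0268). The signs turned for transcripts of Mtor with torin 1 in control (-0.012) and of Mlst8 with Ctu1 loss and torin 1 (-0.0039) with all replicates as labelled, and for the efficiency of Tsc1 with torin 1 in control (0.059) with library totals, which moved all genes' median by as much (from 0.031 to 0.159). With both libraries of each replicate left out in turn, efficiency with torin 1 in control ran from -0.51 to 0.023 for Akt1s1 and from -0.29 to 0.019 for Rictor. For Tsc1 it ran from -0.136 to -0.015. The lowest footprint count behind a member value was 32, of Rps6kb2, and what depth adds to its spread was not tested.

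Counts of called genes moved more. In the order torin 1 in control, torin 1 in Ctu1KO, Ctu1 loss with DMSO, Ctu1 loss with torin 1, footprints gave 138, 178, 2 and 1 calls in replicates 1 to 3, and the interaction 2. With the replicate block footprints gave 2019, 983, 364 and 1425 calls and the interaction 139, transcripts gave 4206, 3378, 2831 and 3162, and the efficiency with Ctu1 loss and DMSO gave 1. DESeq2 called 700 and 842 genes in footprints with Ctu1 loss and 109 in the interaction, 1963, 1609, 1530 and 1092 in transcripts and 3 in their interaction, and 234, 318, 21 and 104 in efficiency. All 4 groups in 1 fit gave 1187 and 842 calls with torin 1 in Ctu1KO and Ctu1 loss with torin 1 in footprints, and 1717 and 970 in transcripts. All RNA-seq replicates as labelled gave 0, 2677 and 0 calls in transcripts for torin 1 in Ctu1KO and Ctu1 loss with DMSO and with torin 1, and replicates 1 to 4, chosen after seeing the data, gave 840 for the last. Efficiency with Ctu1 loss gave 2 calls with DMSO and 60 with torin 1 from footprints of all replicates, and 3 with torin 1 from library totals. With each library left out, counts ran from 559 to 737, 527 to 921, 144 to 285 and 301 to 572 in footprints (48 to 64 in the interaction), and from 412 to 1233, 123 to 1123, 0 to 511 and 1 to 406 in transcripts. In efficiency, with both libraries of each replicate left out in turn, they ran from 61 to 104, 104 to 162, 0 to 0 and 0 to 2.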
